A study of Mus musculus with 96 samples.

Results

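Mouse chromosomes 4, 7, 9, 10 and 13 are described here in single nuclei of a pancreatic cancer cell line, as all bins of the deposited copy ratio table that lie on these 5 chromosomes. They made up 1283 of 4906 bins (26.2%): 295 bins on chromosome 4, 260 on chromosome 7, 246 on chromosome 9, 255 on chromosome 10 and 227 on chromosome 13, with a median width of 483 kb. The chromosomes were chosen by number, with earlier results of these data known, so their likeness is a description and was not tested. The line, KPC1199EGFP, has a C57BL/6 background, expresses the green fluorescent protein EGFP, and was grown as adherent cells without treatment and taken at passage 9. Nuclei were stained with the DNA dye DAPI and sorted by DNA content into a 2N gate (47 nuclei), a 2N+ gate (35 nuclei) and a 4N gate (12 nuclei), and 1 bulk library each was made from the 2N and the 2N+ gate. All 96 libraries came from the same line at the same passage, and no normal mouse genome was used here.

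Cancer cells often gain or lose whole chromosomes when sister chromatids are not shared out evenly at mitosis, and lose or gain parts of chromosomes after DNA breaks. A chromosome that stays at one level while others vary provides an inner scale against which the rest can be read. The members carry known cancer genes in the mouse: Cdkn2a, an inhibitor of the cell cycle, is on chromosome 4; Ccnd1, a cyclin that promotes entry into the cycle, on chromosome 7; Tgfbr2, a receptor for the growth-restraining factor TGF-beta, on chromosome 9; Mdm2, which marks p53 for degradation, on chromosome 10; and Ptch1, the receptor that restrains Hedgehog signalling, on chromosome 13. No gene was placed in a bin, because no annotation of the build mm9 was used here.

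The deposited values are ratios to the general level of each library, equal over runs of bins as segment means are. The read depth behind them is unknown, changes shorter than the submitters' shortest segment cannot be seen, and a value has no counting error of its own. Nuclei of 1 culture are cells of 1 sample per gate, so SDs describe the spread of nuclei, 95% intervals are exact Clopper-Pearson intervals that cover counting error only, while p-values were left out. For each nucleus the median ratio over all member bins is called the common level. Copies are the ratio times the multiplier, between 1.5 and 6, that brought the autosomal ratios of that nucleus nearest to whole numbers. The remaining distance is called the residual, in copies. It was above 0.15 in 8 nuclei (2N nuclei 7 and 24, 2N+ nuclei 22, 30 and 31, and 4N nuclei 1, 2 and 12). More than 60 breakpoints over chromosomes 1 to X, where neighbouring bins differ in value, were found in 6 nuclei (2N+ nuclei 22, 24 and 31 and 4N nuclei 7, 9 and 10).

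The 5 chromosomes stayed close to one another in nearly every nucleus. The distance between the highest and the lowest of the 5 chromosome medians, as a percent of their mean, had a median of 2.65% among 2N nuclei (SD 2.28, range 1.16 to 13.8, n = 47), 2.88% among 2N+ nuclei (SD 9.48, range 1.58 to 48.4, n = 35) and 3.02% among 4N nuclei (SD 3.76, range 1.41 to 14.9, n = 12). At 2 copies, a spread of that size is a small fraction of a copy. All 5 chromosomes lay within 0.05 of the median of the other 4 in 91.5% of the 2N nuclei (43 of 47, 95% interval 79.6 to 97.6). The share was 85.7% for the 2N+ gate (30 of 35, interval 69.7 to 95.2) and 83.3% for the 4N gate (10 of 12, interval 51.6 to 97.9). These intervals overlap, so no order of the gates is read from them.

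**Figure D1:**
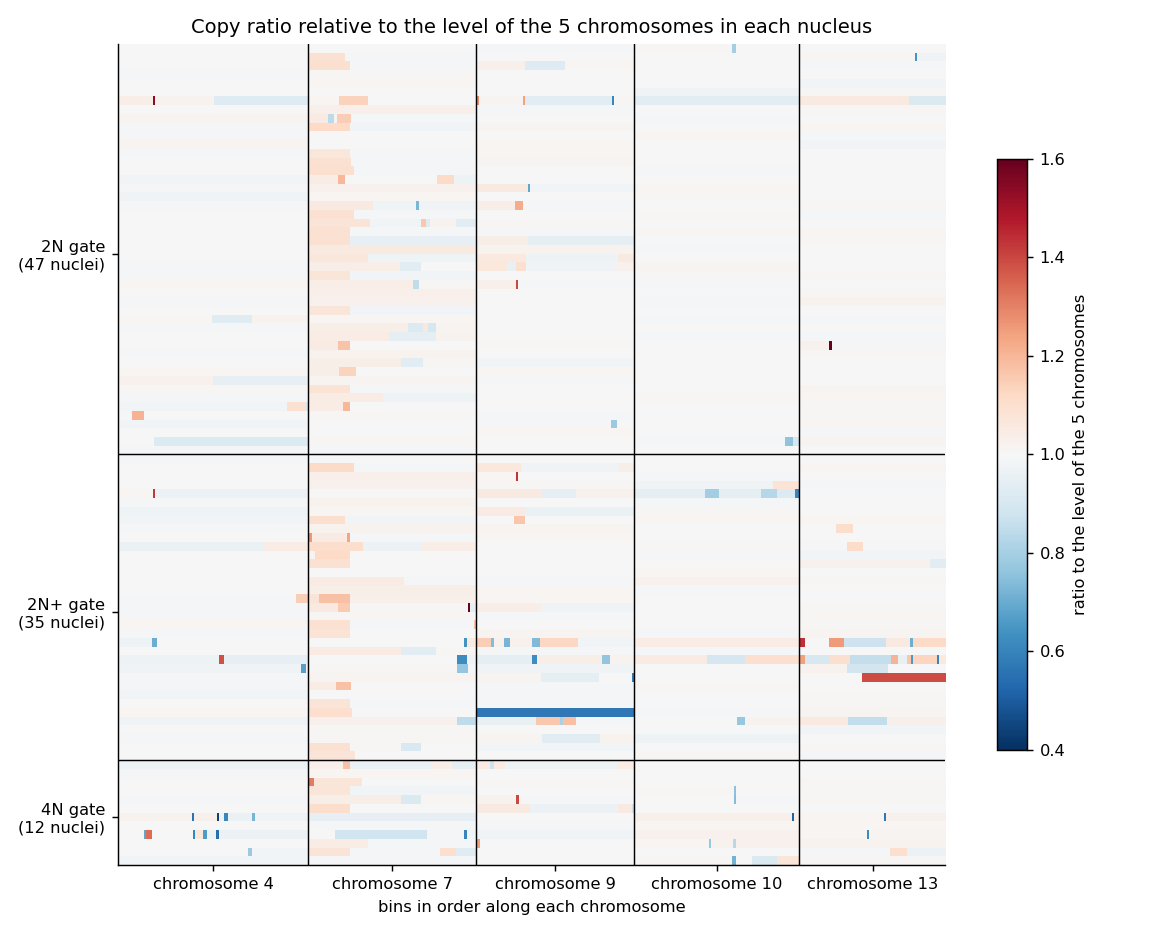
Ratio to the common level of the 5 chromosomes in each of 1283 bins (columns, in order along each chromosome) and 94 nuclei (rows, by gate and number). White is the common level, red is above and blue below; nearly the whole map is pale, chromosome 9 of 1 nucleus of the 2N+ gate is blue throughout, and the start of chromosome 7 is faintly red in many rows.

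The common level itself was not the same ratio in each gate. Its median ratio was 0.850 among 2N nuclei (SD 0.0363), 0.804 among 2N+ nuclei (SD 0.0325) and 0.850 among 4N nuclei (SD 0.0312). As copies, the common level had medians of 2.03 (SD 0.0230), 2.03 (SD 0.0336) and 2.05 (SD 0.904). The median ratio of these chromosomes was thus lower among 2N+ nuclei than among 2N nuclei, while the median of copies was 2.03 in both. Copies rest on a multiplier fitted in each nucleus to reach whole numbers, and the source of the difference in ratio was not tested. Rounded, all 5 chromosomes had 2 copies in each of the 47 2N nuclei, in 33 of 35 2N+ nuclei and in 8 of 12 4N nuclei.

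Taken one at a time, the members had nearly the same median level and differed in their spread over nuclei. Among 2N nuclei the medians relative to the common level were 0.997 for chromosome 4 (range 0.918 to 1.02), 1.00 for chromosome 7 (0.951 to 1.05), 1.00 for chromosome 9 (0.935 to 1.02), 1.00 for chromosome 10 (0.930 to 1.02) and 1.00 for chromosome 13 (0.984 to 1.05). Among 2N+ nuclei the medians lay between 0.994 for chromosome 4 and 1.01 for chromosome 7, and among 4N nuclei between 0.990 for chromosome 7 and 1.01 for chromosome 13. Chromosome 13 had the smallest SD of the members among 2N nuclei (0.0111) and 4N nuclei (0.00855), and chromosome 7 the largest in these gates (0.0205 and 0.0379). Among 2N+ nuclei chromosome 9 (SD 0.0734) and chromosome 13 (SD 0.0671) spread the most. Without nuclei 26 and 30 their SDs there were 0.0150 and 0.0160.

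The other 14 autosomes had larger SDs on the same scale. Their SDs over nuclei ran from 0.0634 to 0.283 among 2N nuclei, from 0.0930 to 0.304 among 2N+ nuclei and from 0.0606 to 0.237 among 4N nuclei. In each gate the lowest of these was above the highest SD of a member. Pairs of a nucleus and an autosome beyond 0.25 of the common level made up 43.4% of all pairs among 2N nuclei, 55.2% among 2N+ nuclei and 45.6% among 4N nuclei, against 0 of 235, 2 of 175 and 0 of 60 pairs of a member. Nothing is read from these SDs and counts, since the members were picked for their constancy and themselves form the level. The counts also include chromosomes that were higher throughout: 3, 6 and 17 were beyond 0.25 in all 47 2N nuclei. Chromosomes 12 and 14 lay at the same level in most nuclei, with medians of 0.992 and 0.999 among 2N nuclei, and had nuclei far from it, up to 1.87 and 1.41.

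**Figure D2:**
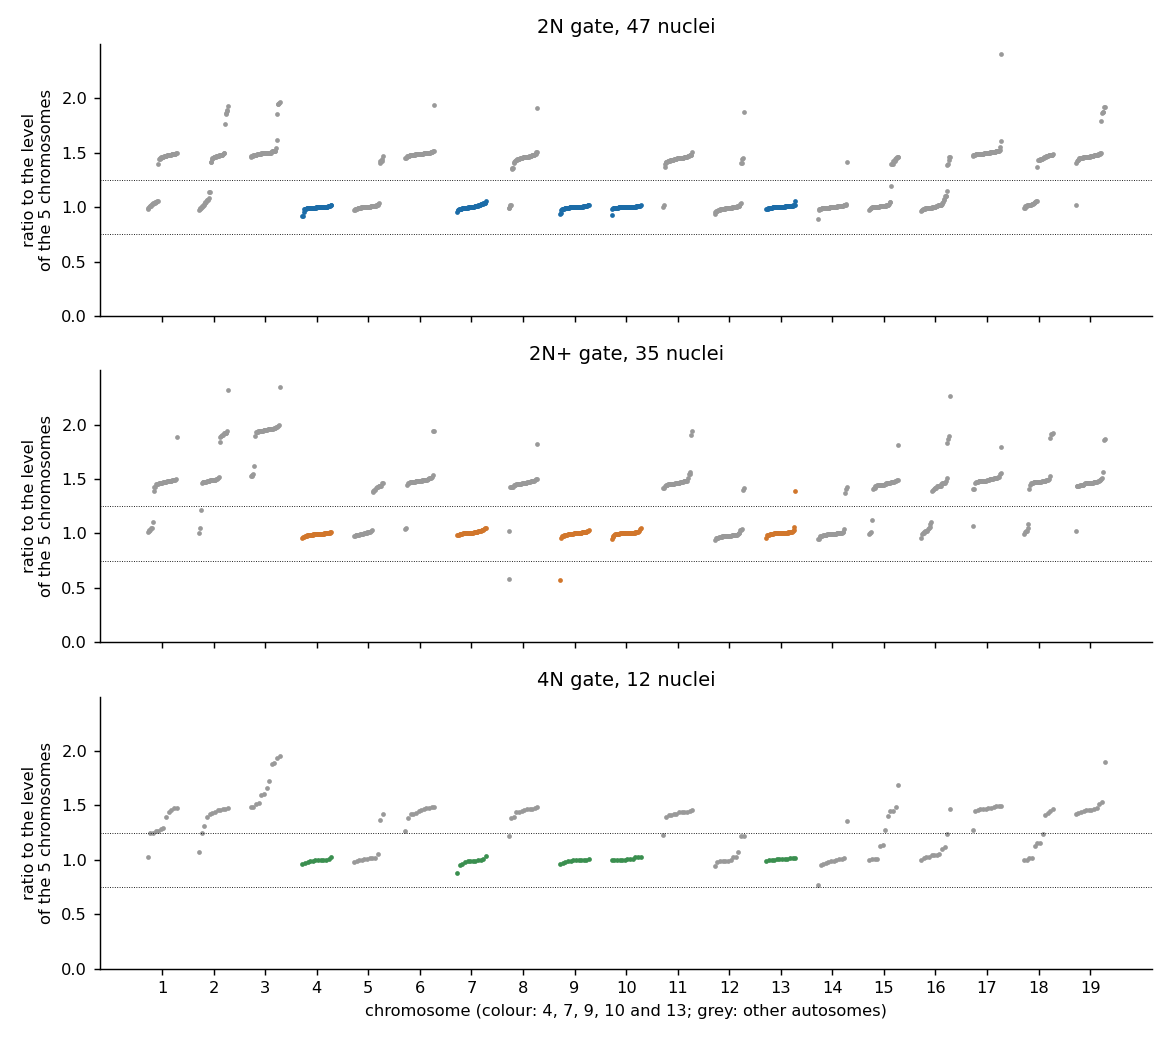
Median ratio of each autosome relative to the common level of chromosomes 4, 7, 9, 10 and 13, with 1 point per nucleus, sorted within each chromosome, for 47 2N, 35 2N+ and 12 4N nuclei. Dotted lines mark 0.25 below and above the level; 2 coloured points lie outside them, chromosome 9 of nucleus 30 and chromosome 13 of nucleus 26, both of the 2N+ gate.

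By its median over bins, a member lay beyond 0.25 of the others in 2 nuclei, both of the 2N+ gate. In nucleus 30 all 246 bins of chromosome 9 had the same value, 0.569 of the median of the other 4 members, or 1.18 copies. Its other members were at 2.08 (chromosome 4), 2.06 (chromosome 7), 2.03 (chromosome 10) and 2.09 copies (chromosome 13). Chromosome 8 of that nucleus was at 1.20 copies, near the value of chromosome 9, while chromosomes 2, 3 and 16 were at 4.76, 4.82 and 4.65 copies. The residual of this nucleus was 0.164, so that its states lay farther from whole numbers than in most nuclei. Nucleus 26 had a residual of 0.0797 and the other such chromosome, chromosome 13 at 1.39 of the other members, or 2.86 copies by its median.

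In nucleus 26 the change did not cover all of chromosome 13. Its first 97 bins, from 1 to 52918851, were at 2.06 copies, and the 130 bins from 52918852 to the chromosome end were at 2.86 copies. The median took the value of the longer, gained stretch, and by the mean over bins the chromosome was at 1.23 of the others, inside 0.25. The same nucleus had 1.19 copies in the last 4 bins of chromosome 9, from 122066142 on, and 2.06 copies in the 52 bins before. Its chromosomes 4, 7 and 10 had no step at all.

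The next largest deviations were far smaller. 2N nucleus 7 had chromosome 13 at 1.13 and chromosome 7 at 1.07 of the other members. 4N nucleus 9 had chromosome 7 at 0.882, and 2N nucleus 46 chromosome 4 at 0.915. The gap between these values and those of nuclei 26 and 30 left the counts at limits of 0.15 and 0.35 the same as at 0.25, namely 0, 2 and 0 chromosomes in the 3 gates.

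Inside the members, changes were short. An altered segment was a run of at least 3 bins that lay above or below the common level by 0.25 of it or more. There were 47, of which 15 were gains and 32 losses, in 20 of 94 nuclei (21.3%, 95% interval 13.5 to 30.9). Their median length was 5 bins, 16 of them were exactly 3 bins, and 39 lay inside a chromosome rather than at an end. Chromosome 4 held 14 segments, chromosome 7 had 7, chromosome 9 had 12, chromosome 10 had 4 and chromosome 13 had 10. All 4 of chromosome 10 were losses, as were 10 of the 14 of chromosome 4. Nuclei with more than 60 breakpoints held 22 of the losses and 4 of the gains. The nuclei with at most 60 had 10 losses and 11 gains. Of the 14 segments of chromosome 4, 11 came from nuclei with more than 60 breakpoints, as did 1 of the 4 of chromosome 10.

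The gates held 8, 22 and 17 segments, in 6 of 47 (12.8%, 4.83 to 25.7), 9 of 35 (25.7%, 12.5 to 43.3) and 5 of 12 nuclei (41.7%, 15.2 to 72.3). The 3 intervals overlap. A few nuclei carried most segments: 2N+ nuclei 22 and 24 had 8 and 5, and 4N nuclei 7 and 9 had 6 and 7, so that these 4 nuclei, all with more than 60 breakpoints, held 26 of 47. Nuclei 31 (2N+) and 10 (4N), also with more than 60 breakpoints, held none. Without the 6 such nuclei the counts were 8, 9 and 4. Leaving out 1 nucleus at a time, the 2N count was 5 without nucleus 7, the 2N+ count 14 without nucleus 22, and the 4N count 11 without nucleus 7 and 10 without nucleus 9. A nucleus in each gate could thus move its count by over 1.5 times. A share of nuclei can change by only 1 nucleus when 1 is left out, so this does not rank counts against shares. Shares moved with the limit as well: at 0.15 they were 29.8% of 2N and 75% of 4N nuclei.

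Members were also compared with the other autosomes by segments measured from each chromosome's own median. The distance from that median was still taken as a fraction of the common level, so this scale is not independent of it. Over all 19 autosomes, pairs of a nucleus and a chromosome with such a segment made up 24.5% among 2N nuclei, 25.7% among 2N+ nuclei and 41.7% among 4N nuclei. Among members they made up 2.98% (7 of 235), 9.14% (16 of 175) and 20% (12 of 60), and among the other 14 autosomes 32.2%, 31.6% and 49.4%. Nothing is read from this difference either, since the members were chosen with their constancy known, pairs from 1 nucleus are not independent, and changes present in all cells of the line count once in every nucleus. Among 2N nuclei, all 47 had such a segment on chromosomes 2 and 5, 38 on chromosome 8 and 26 on chromosome 16. Chromosomes 3, 12, 14, 18 and 19 each had one in 0 to 3 of these nuclei, as did each member.

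Of the 47 segments, 30 were private to 1 nucleus (63.8%, 48.5 to 77.3). The other 17 fell into 8 sets, in which the same chromosome changed the same way in different nuclei with both ends within 3 bins. Nuclei of more than 1 gate shared 4 of these sets, and 4 sets were found only among nuclei with more than 60 breakpoints. The sets are given by chromosome, with mm9 positions of the stretch common to their nuclei.

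On chromosome 4 a gain from 31846662 to 33258451 (3 bins) had the same borders in 2N nucleus 7, at 3.22 copies and with a residual of 0.157, and in 2N+ nucleus 5, at 2.99 copies. The other 92 nuclei had a median of 0.997 of the common level there (SD 0.0326). The lowest of them, 2N+ nucleus 22 at 0.700, had lost a longer stretch that spans the same bins. Nuclei 7 and 9 of the 4N gate shared a pair of losses on this chromosome. From 64856083 to 65834748 they were at 0.557 and 0.609 of the level, and from 84008248 to 85419801 at 0.439 and 0.550, which are 0.898 and 1.13 copies. In both stretches the next lowest nucleus, 46 of the 2N gate, was at 0.918 of the level, which is its value for most of the chromosome.

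On chromosome 7 the first 6 bins, from 1 to 6822159, were gained in 2N+ nucleus 10 (1.26 of the level, 2.57 copies) and 4N nucleus 3 (1.30, 5.28 copies on its multiplier of 4.65). The value of nucleus 10 was just past the limit, and the segment of nucleus 3 ran on to 12422001. The other 92 nuclei had a median of 1.03 there (SD 0.0367), up to 1.12 in 2N nucleus 10. The bulk libraries were at 1.07 (2N) and 1.08 (2N+). These bins lie in the proximal part of chromosome 7, described below, that was raised in many nuclei. Near the other end, the stretch from 143509236 to 145810190 was lost with the same borders in 2N+ nucleus 22 (1.21 copies) and 4N nucleus 9 (1.24 copies). 2N+ nucleus 24 was at 1.23 copies there as well. Its loss began earlier, at 138900279, and ended at the same bin, so that it counted as private by the rule on both ends. 2N+ nucleus 25, with fewer than 60 breakpoints, was at 0.767 of the level, just outside the limit.

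On chromosome 9 a gain from 34797754 to 36529068 was seen in 1 nucleus of each gate: 2N nucleus 28 at 1.40 of the level (2.84 copies), 2N+ nucleus 3 at 1.43 (2.86 copies) and 4N nucleus 5 at 1.40 (5.61 copies on its multiplier of 4.70). It began at the same bin in all 3, and ended 1 bin later in the 4N nucleus. None of them had more than 60 breakpoints. It was the only set with nuclei of all 3 gates. The next highest nuclei were 19 of the 2N gate at 1.22 and 8 of the 2N+ gate at 1.17, with longer and lower segments, and the other 91 nuclei had a median of 1.00 (SD 0.0577).

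On chromosome 10 a loss from 79788918 to 81510648 was found in nuclei 5 and 12 of the 4N gate, at 0.741 and 0.718 of the level. Nucleus 4 of the same gate, at 0.753, fell just outside the limit of 0.75. On multipliers of 4.70 and 4.65, nuclei 5 and 4 had 2.98 and 3.06 copies there, with chromosome 10 at 4.02 and 4.08, whereas nucleus 12 had 1.45 copies on a multiplier of 2.35, with a residual of 0.182. 2N nucleus 1 was at 0.794 and 4N nucleus 10 at 0.835. With these, the nuclei below 0.85 in these bins were 4 of the 12 from the 4N gate, 1 of the 47 from the 2N gate and 0 of the 35 from the 2N+ gate, a limit named after the values were seen. The upward step at 81510649 was placed at the same bin in 3 nuclei, all of the 4N gate. The loss of nucleus 12 ran on to 82076923, so the losses of nuclei 4, 5 and 12 did not all end there. An upward step at 82076924 was found in 1 nucleus each of the 2N and the 4N gate. Both bulk libraries were near the level, at 1.00 (2N) and 1.02 (2N+). The other 2 losses on this chromosome were private: the last 7 bins, from 126351061 on, in 2N+ nucleus 5 (1.27 copies), and the stretch from 123924905 to 125375235 in 4N nucleus 7 (1.05 copies).

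On chromosome 13 a loss from 94066650 to 95488757 was shared by nuclei 22 and 24 of the 2N+ gate, at 1.33 and 1.30 copies. Both have more than 60 breakpoints. The next lowest nucleus was 7 of the 2N gate at 0.914.

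**Figure D3:**
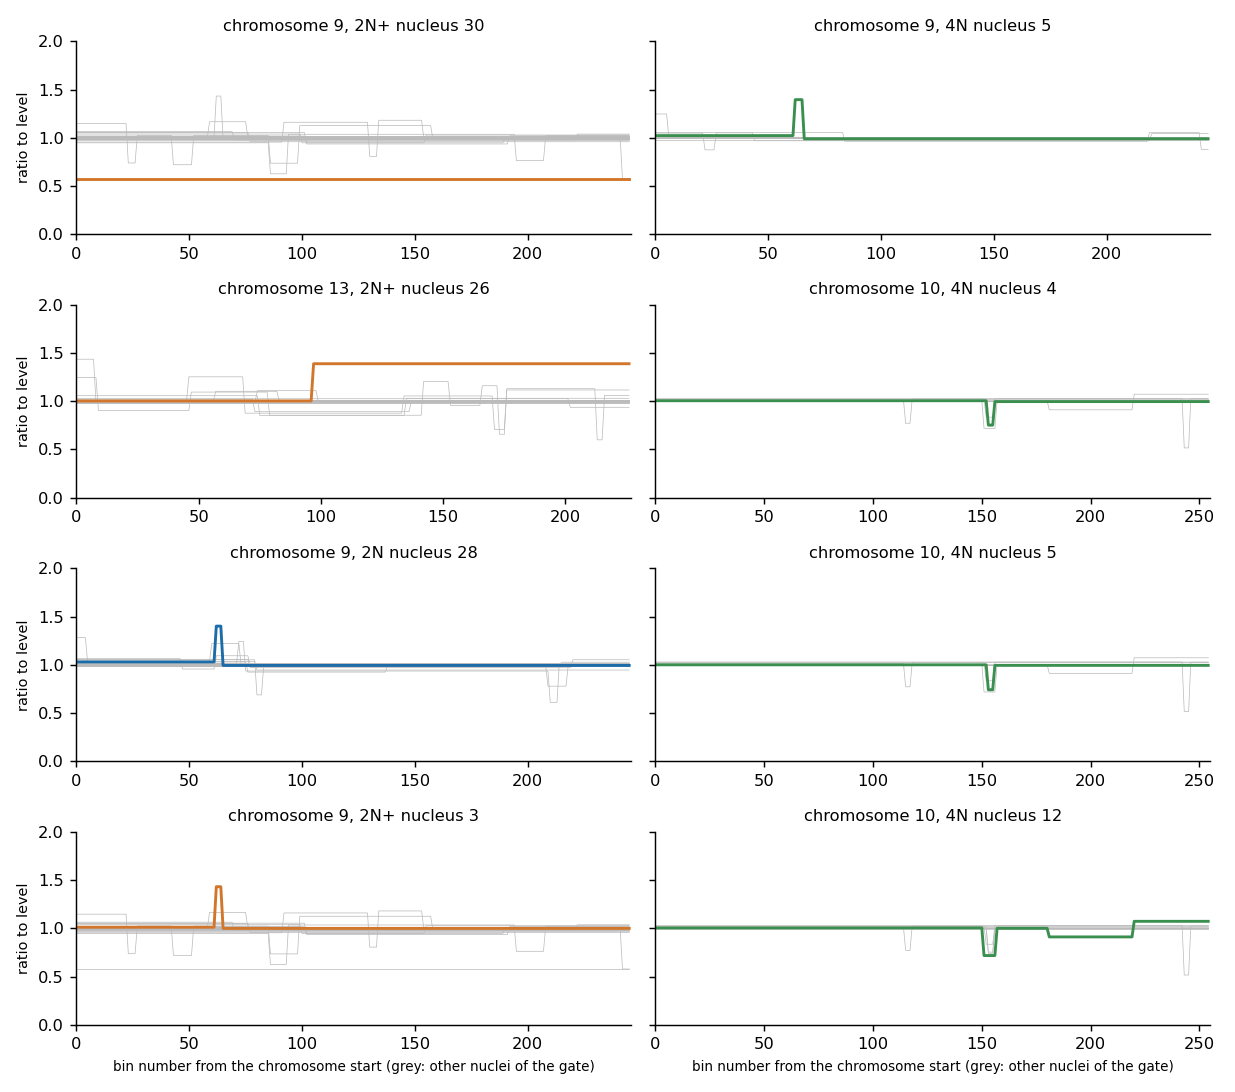
Ratio to the common level along chromosomes 9, 10 and 13 (bin number from the start of the chromosome) in named nuclei, coloured by gate, with the other nuclei of that gate in grey. Chromosome 9 of nucleus 30 lies at 0.573 of the level over its whole length, chromosome 13 of nucleus 26 rises to 1.39 after 97 bins, the gain on chromosome 9 begins at the same bin in 3 nuclei and ends 1 bin later in that of the 4N gate, and the loss on chromosome 10 recurs in nuclei 4, 5 and 12 of the 4N gate.

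The longest private segments were of different size in the 3 gates. Among 2N nuclei none was over 5 bins. Nucleus 7 had a gain of the first 5 bins of chromosome 9, up to 5885750 (2.69 copies), and a loss from 106556019 to 108443522 on the same chromosome (1.28 copies). Nucleus 35 had a gain on chromosome 13 from 27738205 to 30264032, with 3.29 copies. Nucleus 19 had a loss on chromosome 7 from 107274473 to 109129313 (1.46 copies). Nucleus 17 had a loss on chromosome 9 from 43779295 to 45170347 (1.40 copies). Tied with it at 3 bins was a loss on chromosome 13 of nucleus 2, from 96876350 to 98318645 (1.29 copies).

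Among 2N+ nuclei the whole of chromosome 9 in nucleus 30 and the distal gain of chromosome 13 in nucleus 26 were the longest. They were followed by a gain of 23 bins on chromosome 13 of nucleus 22, from 27738205 to 39188536 (2.37 copies), which began at the same bin as the gain of nucleus 35 among 2N nuclei. The loss of 15 bins on chromosome 7 of nucleus 24, given above, came next, and then a loss of 13 bins on chromosome 9 of nucleus 22 from 46531401 to 52578528 (1.39 copies). Nucleus 24 had a loss that began at that same bin and ended at 50208601 (1.24 copies). It counted as private because its end lay more than 3 bins away. The highest value of any segment in the members, 1.88 of the level or 3.78 copies, was a private gain of 3 bins on chromosome 7 in nucleus 18, from 146312767 to 147795366.

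Among 4N nuclei all 5 of the longest private segments lay on chromosome 4 and in nuclei 7 and 9. Nucleus 9 had a loss from 24372006 to 26507056 (1.41 copies) that passed directly into a gain up to 30603128 (2.74 copies), and a loss from 73169636 to 76430359 (1.36 copies). Nucleus 7 had losses from 90041592 to 92672116 (0.610 of the level) and from 110640327 to 114035597 (0.721 of the level). Without these nuclei and nucleus 10 the gate had 4 altered segments, and all 4 were shared ones.

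Many steps in the members were too small for a whole copy. There were 274 breakpoints at 202 positions, and the step was at least 0.25 of the common level in 91, from 0.15 to 0.25 in 66, and below 0.15 in 117. Chromosome 7 held 106 of them (38.7%), or 0.434 per 100 bins and nucleus, against 0.117 for chromosome 10, 0.148 for chromosome 4, 0.173 for chromosome 13 and 0.268 for chromosome 9. On chromosome 7, 67% of the steps were below 0.15, and 9.43% reached 0.25. On chromosome 4 the order was the other way, with 17.1% below 0.15 and 65.9% at 0.25 or more. No breakpoint in any member was found in 13 of 47, 7 of 35 and 2 of 12 nuclei of the 3 gates.

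Of the 202 positions, 159 were found in 1 nucleus, 34 in 2, 7 in 3 and 2 in more. Positions were matched by exact bin, so a step placed in a neighbouring bin counts as another position. The 2 most frequent were a position on chromosome 7 at 56081511, in 22 nuclei, and one on chromosome 9 at 34797754, in 4 nuclei. At the latter the step was upward in all 4, from 0.138 to 0.420 of the level, and the shared gain began there in 3 of them. The 7 positions found in 3 nuclei were on chromosome 4 at 110640327, chromosome 7 at 38390676, 51919127, 56526277 and 145810191, chromosome 9 at 42423526 and chromosome 10 at 81510649. At 110640327 on chromosome 4 the ratio went down in 1 nucleus and up in the other 2, so this position did not mark the same change in all of them.

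The step on chromosome 7 at 56081511 was seen in 9 of 47, 9 of 35 and 4 of 12 nuclei from the 2N, 2N+ and 4N gates. The step was downward in all 22, with a median of -0.0988 of the level (range -0.247 to -0.0775). In these nuclei the 65 bins before it were at a median of 2.21 copies and the 195 bins after it at 2.02 copies, so the difference was a small fraction of a copy. The proximal part over the distal part, as medians over bins, was 1.09 in them (SD 0.0266, range 1.05 to 1.15, n = 22). A downward step within 10 bins of the position was found in 35 of 94 nuclei, and an upward one in 1.

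Over all nuclei the proximal part was never below the distal part. Its ratio had a median of 1.03 among 2N nuclei (SD 0.0459, range 1.00 to 1.15), 1.00 among 2N+ nuclei (SD 0.0478, range 1.00 to 1.14) and 1.06 among 4N nuclei (SD 0.0484, range 1.00 to 1.14). It was above 1.05 in 18 of 47, 14 of 35 and 7 of 12 nuclei, and below 0.95 in 0 of 94. Chromosome 7 had no breakpoint in 38 nuclei, whose ratio is 1.00 by construction. The same measure for the other members, the first 25% of bins over the rest, was above 1.05 in 3 nuclei on chromosome 4, 11 on chromosome 9, and 0 on chromosomes 10 and 13. It was below 0.95 in 1 nucleus on chromosome 9, 3 on chromosome 13, and 0 on chromosomes 4 and 10.

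The bulk libraries showed the same step. In the 2N+ bulk library it lay at the same bin, and the ratio of the proximal to the distal part was 1.08. In the 2N bulk library it lay 2 bins further on, at 56978814, with a ratio of 1.11. 4N nucleus 4, with members near 4 copies, also had it: its chromosome 7 was at 4.35 copies before the step and 4.0 after it. In single nuclei this difference was less than a whole copy, and its source was not tested.

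**Figure D4:**
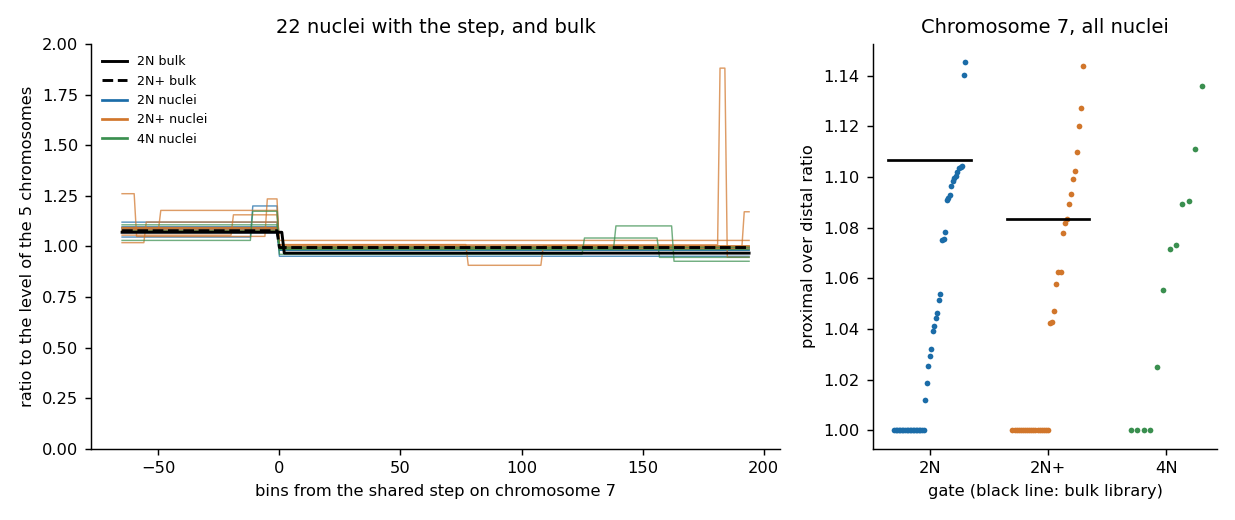
Left, ratio to the common level along chromosome 7 in the 22 nuclei with the step, in bins from that step, with both bulk libraries in black; right, the ratio of the proximal to the distal part for each of 94 nuclei, by gate, with bulk as black lines. The median step is -0.0988, and no point on the right lies below 1.00.

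With the full range of multipliers, the members rounded to more than 2 copies in 4 nuclei of the 4N gate, while they stayed close to one another. Cells of this gate can be cycling cells with replicated DNA, whose ratios stay those of the unreplicated genome, or cells with a doubled set of chromosomes, and only odd numbers of copies tell them apart in ratios. The members rounded to 2 copies in 8 nuclei, to 3 in nucleus 2 and to 4 in nuclei 3, 4 and 5. With multipliers limited to the range from 2.0 to 3.0, in which all 82 nuclei of the other gates lay, the members rounded to 2 copies in all 12. At the common levels of this gate, ratios from 0.792 to 0.900, the limit favours 2 copies by construction. It therefore does not tell the readings apart.

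Nucleus 3 had members from 4.03 to 4.08 copies on a multiplier of 4.65, with a residual of 0.120, against 0.234 with the limited multiplier, which put the common level at 1.78 copies. Nucleus 5 had members from 3.98 to 4.16 copies on 4.70, with residuals of 0.107 and 0.193. In nucleus 4 the members were at 4.0 to 4.09 copies, and the residuals were closer, at 0.0967 and 0.121. In nucleus 2 they were nearly equal, 0.206 with members at 2.88 to 2.94 copies and 0.218 with the common level at 2.02 copies. Nucleus 2 also had no breakpoint in any member, so its 3 copies rest on the other chromosomes and on a small difference in the residual. Among the readings near 4 copies, nucleus 3 stood farthest from its limited alternative and nucleus 4 nearest. These nuclei also differed outside the members. Chromosomes 3, 11 and 14 of nucleus 3 were at 1.73, 1.23 and 0.772 of the common level. Its values for chromosomes 11 and 14 were the lowest of the gate. In nucleus 4 the same chromosomes were at 1.49, 1.44 and 1.00, and in nucleus 5 at 1.51, 1.44 and 0.987. Whether these levels are odd numbers of copies was not tested.

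The other 8 nuclei of the 4N gate had members near 2 copies. Nucleus 1 was the lowest, from 1.87 to 1.95 copies, with 8 breakpoints in the members, no altered segment and a residual of 0.197. Nucleus 6 had members from 1.94 to 2.02 copies with no altered segment. Nucleus 8 had members from 2.08 to 2.13 copies with no breakpoint in them. Nucleus 10, rich in breakpoints elsewhere, had 6 in the members, no altered segment, and 1.96 to 2.03 copies. Nucleus 11 kept all members between 2.01 and 2.04 copies, the narrowest range in the gate on this scale. Nucleus 12 had the loss on chromosome 10 as its single altered segment and members from 1.99 to 2.04 copies.

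Nuclei 7 and 9 were the exceptions by structure. Nucleus 7 had 12 breakpoints in the members and 6 altered segments, all losses, which covered 1.79% of member bins. Nucleus 9 had 15 breakpoints and 7 altered segments, 6 losses and 1 gain, over 2.57% of member bins. It also had the widest spread of the gate, 14.9%, because chromosome 7 was at 1.81 copies and chromosome 10 at 2.11. In both nuclei chromosome 7 was the lowest member, at 0.936 and 0.882 of the other 4. No member of any 4N nucleus was beyond 0.25 of the others. The exceptions inside members were short segments, and levels of 3 or 4 copies for all members together depend on the multiplier.

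**Figure D5:**
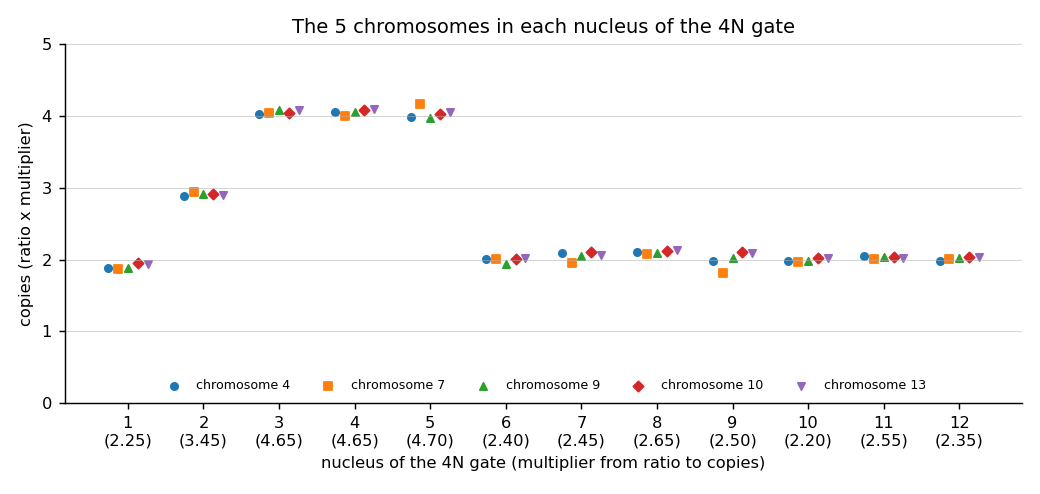
Copies of chromosomes 4, 7, 9, 10 and 13 (median ratio times the multiplier, which stands in brackets below each nucleus) in the 12 nuclei of the 4N gate. The 5 symbols of a nucleus lie together, near 4 copies in nuclei 3, 4 and 5, near 3 in nucleus 2 and near 2 in the other 8.

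In the bulk libraries, each without a replicate, the 5 chromosomes were as close as in single nuclei. The largest deviation of a member from the other 4 was 0.0305 in the 2N bulk library, on chromosome 7, and 0.0204 in the 2N+ bulk library, on chromosome 13. Chromosomes 4, 10 and 13 had a single value over their whole length in both. Chromosome 9 was flat in the 2N+ bulk library and had 3 levels in the 2N bulk library, 1.07 up to 43779294, 0.980 in the middle and 1.05 from 109678094 on. Over 2N nuclei the same 3 stretches had means of 1.01 (SD 0.0183), 0.996 (SD 0.0168) and 1.00 (SD 0.0137), so the bulk library was above the nuclei at both ends by more than 1 SD. The border of the first of these stretches, at 43779295, is the bin where the private loss of 2N nucleus 17 begins. No member bin of either bulk library reached 0.25 from the common level.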

How the data were processed

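Single nuclei and 2 bulk samples were amplified with the SeqXE kit and sequenced, per the labels' protocols. The submitters' processing notes name Bowtie 1.0 and the build mm9. For the making, correction and segmentation of bins, the tool is not given in the sources used here. Each deposited value, entered as other because the file mixes tabs and blanks, is a linear ratio to the library's own level, constant over runs of bins.

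The common level, chromosome medians, the multiplier (1.5 to 6 in steps of 0.05) and altered segments (limit 0.25, at least 3 bins) were computed with Python 3.11.15, numpy 2.4.6, pandas 2.3.3 and scipy 1.17.1, drawn with matplotlib 3.10.9, and tested on simulated data. The filter on bins (median ratio 0.25 to 4) kept all member bins. Groups came from sample titles. The members, lists and limits were chosen with earlier results of these data known. Named were all members, all members beyond 0.25, all shared segments, the 5 longest private segments per gate and the 5 most frequent breakpoint positions, both with ties, and all 4N nuclei. Depth and bin noise are unknown from ratios. No pair of libraries held identical values.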

Additional observations from a re-analysis of the deposited data

How the results depend on the processing

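The 24 results were recomputed 113 times in all. In 85 cases the value stayed within 1 SD of nuclei, its counting interval or a factor of 1.5. Some of these could not move: the filter had kept all member bins, and no 2N nucleus had more than 60 breakpoints. All values are positive, so a change of sign was not possible. The alternatives without nuclei of a residual above 0.15, and all those on the chromosome 7 step, were chosen after seeing the data. Spread and share at the common level stayed within these bounds under all alternatives run on them. For the spread this bound is wide, since the SD was above the median among 2N+ nuclei (9.48) and 4N nuclei (3.76). The median spread itself ran from 2.53% to 2.65% among 2N nuclei. It ran from 2.83% to 3.06% among 2N+ nuclei and from 2.33% to 3.35% among 4N nuclei. Multipliers limited to 2.0 to 3.0 put 100% of 4N members at 2 copies, against 66.7%, and left 0 instead of 4 nuclei of this gate at another number, by construction. A limit of 0.15 gave 20 segments in the 2N gate, 40 in the 2N+ gate, 14 shared sets, 29.8% of 2N and 75% of 4N nuclei with a segment, and 9 nuclei off the level in the 4N gate, against 5. A limit of 0.35 gave 5, 13 and 10 segments in the 3 gates, 5 shared sets and 3 such 4N nuclei. Runs of at least 10 bins left 0, 5 and 0 segments, in 0%, 11.4% and 0% of nuclei. Without nuclei with more than 60 breakpoints there were 9 segments in the 2N+ gate, 4 in the 4N gate and 4 shared sets. Without nuclei with a residual above 0.15 there were 5 segments in the 2N gate, 13 in the 2N+ gate and 4 shared sets. Ends within 1 bin left 5 of 8 sets. A window of 10 bins raised the nuclei with the chromosome 7 step from 22 to 35. In doubled nuclei 1 copy of 4 is a ratio of 0.75, right at the limit; counted in whole copies, 18 segments in 50% of nuclei were altered in the 4N gate. Beyond the construction of these alternatives, the cause was not tested. No paired analysis was possible because replicate numbers serve as names here and gates were not tested against each other.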
